A study of Mus musculus with 6 samples.

Results

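The genes described here are the mitochondrial ribosomal protein genes, the 76 symbols of the form Mrpl or Mrps followed by a number among the 44792 gene symbols counted. They were read in RNA sequencing of whole hearts from 6 C57BL/6 mice aged 3 months, none of them treated. The control group was 3 wild type mice, and the other was 3 mice with R193H cTnI, a substitution in cardiac troponin I, which holds heart muscle relaxed when calcium is low. Each heart gave 1 library, the hearts of a group were biological repeats, and the comparison asked which transcripts differed between wild type and mutant hearts. Whether R193H animals carried the substitution as a transgene or at the endogenous gene, on 1 allele or both, is not stated in the labels.

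The mitochondrial ribosome, or mitoribosome, sits in the mitochondrial matrix and makes the few membrane proteins of the respiratory chain that mitochondrial DNA still encodes. Its RNA is transcribed from mitochondrial DNA, whereas every one of its proteins is encoded in the nucleus, made in the cytosol and imported, so its assembly draws on both genomes. Some of its proteins descend from those of bacterial ribosomes and others exist only in mitochondria. Heart muscle is dense with mitochondria, and inherited defects of several of these genes cause cardiomyopathy in people. In nuclear genes for mitochondrial proteins, promoters often hold binding sites of nuclear respiratory factor 1 (NRF1), of the ETS factor GABP and of YY1.

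By role, 49 of the 76 members encode proteins of the large subunit, 26 of the small subunit, and 1, Mrps36, encodes a component of the alpha-ketoglutarate dehydrogenase complex despite its name. Mrps18a and Mrps30 are named for the small subunit but encode proteins of the large subunit. All 76 were found in the GENCODE M21 annotation of GRCm38, from which gene positions are given. By that annotation, 17 of 76 (22.4%) lay head to head with another protein-coding gene, against 9.77% of the 12246 protein-coding genes tested. Head to head here means that the other gene starts on the opposite strand, at most 1000 bases upstream. Pairs that overlap at their starts, such as Mrpl46 and Mrps11, were not counted.

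The promoters are shown because NRF1, GABP and YY1 sites are features that such genes often share, and the members printed are ones whose values follow. RefSeq promoters on GRCm38.p6, from 250 bases before to 50 bases after the start, were matched for 67 of the 76 members. On either strand, the NRF1 letters GCGCANGCG stood in the promoters of 15 of 67 members (22.4%), against 14.7% of tested genes and 7.03% of all genes in that table. The ETS letters CCGGAAGT stood in 12 (17.9%), against 8.58% and 4.31%. The YY1 letters AANATGGCG stood in 10 (14.9%), against 5.7% and 2.76%, and since they hold ATG they can overlap a start codon. The CCAAT box stood in 40.3% of member promoters, against 42.4% of tested and 41.1% of all genes. The Sp1 letters GGGCGG stood in 49.3%, below the tested genes (67.8%) and above all genes (38.2%). The TATA letters TATAAA stood in 7.46%, against 8.89% and 15.7%. The 100 bases before the start of 4 members are printed 5′ to 3′ on the gene's own strand. Capitals mark the ETS letters in Mrpl27 and Mrpl3 and the NRF1 letters in Mrpl9, where they match on both strands, and in Mrpl12, where they read on the opposite strand.
Mrpl27, chr11:94653691-94653790, plus strand: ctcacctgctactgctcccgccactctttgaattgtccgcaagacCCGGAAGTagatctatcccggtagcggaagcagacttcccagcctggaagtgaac
Mrpl3, chr9:105053168-105053267, plus strand: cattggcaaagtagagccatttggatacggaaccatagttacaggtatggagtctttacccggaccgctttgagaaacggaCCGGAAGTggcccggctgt
Mrpl9, chr3:94443236-94443335, plus strand: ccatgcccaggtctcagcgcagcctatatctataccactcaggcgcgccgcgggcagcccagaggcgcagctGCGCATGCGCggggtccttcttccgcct
Mrpl12, chr11:120484537-120484636, plus strand: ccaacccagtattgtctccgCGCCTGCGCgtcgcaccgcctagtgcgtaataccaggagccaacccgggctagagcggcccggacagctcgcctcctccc

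In Mrpl27, Mrpl35, Mrps30 and Mrps18a the YY1 letters lay just after the RefSeq start, and 30 bases around them, with the letters in capitals, are printed.
Mrpl27, chr11:94653789-94653818, plus strand: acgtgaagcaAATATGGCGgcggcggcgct
Mrpl35, chr6:71823742-71823771, minus strand: ggcaggctgcAAGATGGCGgcttccatctt
Mrps30, chr13:118387218-118387247, minus strand: gcggcgggcgAAAATGGCGgcggccaggta
Mrps18a, chr17:46111005-46111034, plus strand: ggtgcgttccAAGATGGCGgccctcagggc

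Mrpl27 held both the ETS and the YY1 letters. A relation of these letters to the fold changes below was not tested. RefSeq starts can differ from the GENCODE positions of the genes. Those of Mrpl27, Mrpl3, Mrpl9, Mrpl12, Mrpl35 and Mrps18a lie inside the GENCODE spans. In Mrpl27, Mrpl3, Mrpl9 and Mrpl12 the last bases printed before the RefSeq start are therefore inside the GENCODE gene. In Mrpl3 these bases include the ETS letters. A match of letters is a description of the sequence and not a bound site.

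Values by heart are given for replicates 1, 2 and 3 in that order, with wild type first. The libraries held 14736067 to 20652534 counts for the wild type and 19582600 to 21852210 counts for R193H. The share of mitochondrially encoded genes was 36.7% to 36.8% in wild type and 30.9% to 35.4% in R193H libraries. All 12 ventricular cardiomyocyte markers were detected, with summed levels of 70190 to 73537 CPM (counts scaled to a common library size) in wild type and 64560 to 69331 CPM in R193H hearts, which do not overlap. Of these markers 9 of 12 had a lower mean in R193H, 5 of them without overlap, and 1, Tnni3, was higher without overlap. Of all genes tested, 5.8% were lower without overlap and 6.02% were higher. Tcap had a log2 fold change of 0.46 with overlapping groups. Tnni3, which encodes cTnI, had 3202, 3466 and 3282 CPM in the wild type, against 3900, 3641 and 3703 CPM with R193H, and counts per gene do not show the substitution. Macrophage markers, of which 11 of 12 were tested and all 11 had a higher mean in R193H, summed to 369 to 436 CPM in the controls and, with R193H, 447 to 644 CPM. Summed red cell markers (274 to 3137 CPM in wild type, 496 to 650 CPM in R193H) and atrial markers (80.7 to 679 and 132 to 242 CPM) varied mainly among wild type hearts. Single atrial markers also varied among R193H hearts, with a median coefficient of variation of 128%, against 91.0% in wild type. Fibroblast markers were highest in R193H replicate 2 (2202 CPM, against 1312 to 1552 CPM in the other hearts). The part of any of these in the results was not tested, and in bulk tissue fewer cells of a type and less RNA per cell cannot be told apart.

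No mitochondrial ribosomal protein gene differed between R193H and wild type hearts past the threshold, and the differences measured were small in either direction. Of the 76 members, 75 passed the filter on low counts and were tested, and 0 were called at an adjusted p under 0.05 in edgeR's quasi-likelihood test with Benjamini-Hochberg adjustment. Across all 14370 genes tested the share called was 0.00696%, which is 1 gene. At an unadjusted p under 0.05, 2 of 75 members (2.67%) passed, against 5.73% of all genes. Both were higher in R193H, as were 3.22% of all genes. DESeq2 and limma-voom also called 0 members, against 0.292% and 0.00696% of all genes, so a count of 0 is near the background in each test.

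The median log2 fold change of the 75 members (R193H over wild type) was 0.011, and that of all genes tested was -0.00036. Mean levels were higher in R193H for 45 members (60%, against 49.9% of all genes) and lower for 30. The fold changes ran from -0.17 (Mrps18c) to 0.29 (Mrpl27), with the middle 50% between -0.032 and 0.085. A log2 difference of at least 0.3 in either direction, a size chosen after the values were seen, was reached by 0 members and by 17.3% of all genes tested. Among the 7662 genes with a mean level of 10 to 300 CPM, the range that holds 74 of the tested members, it was reached by 5.06%. At these levels, the log2 fold change lay above 0 for 44.6% of the genes and for 59.5% of the 74 members. The median log2 fold change of the genes in this range was -0.017, and these differences from the members were not tested.

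Standard errors of the log2 fold changes ran from 0.070 to 0.24, with a median of 0.090. For 73 of the 75 tested members the whole 95% interval lay within 0.5 of 0 on the log2 scale, which is a 1.41-fold difference either way, and the exceptions were Mrpl23 and Mrpl47. The lowest bound of any interval was -0.43 (Mrps18c) and the highest was 0.73 (Mrpl23, the least counted tested member). Intervals of 73 members held 0, and those of Mrpl27 and Mrpl35 did not.

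**Figure D1:**
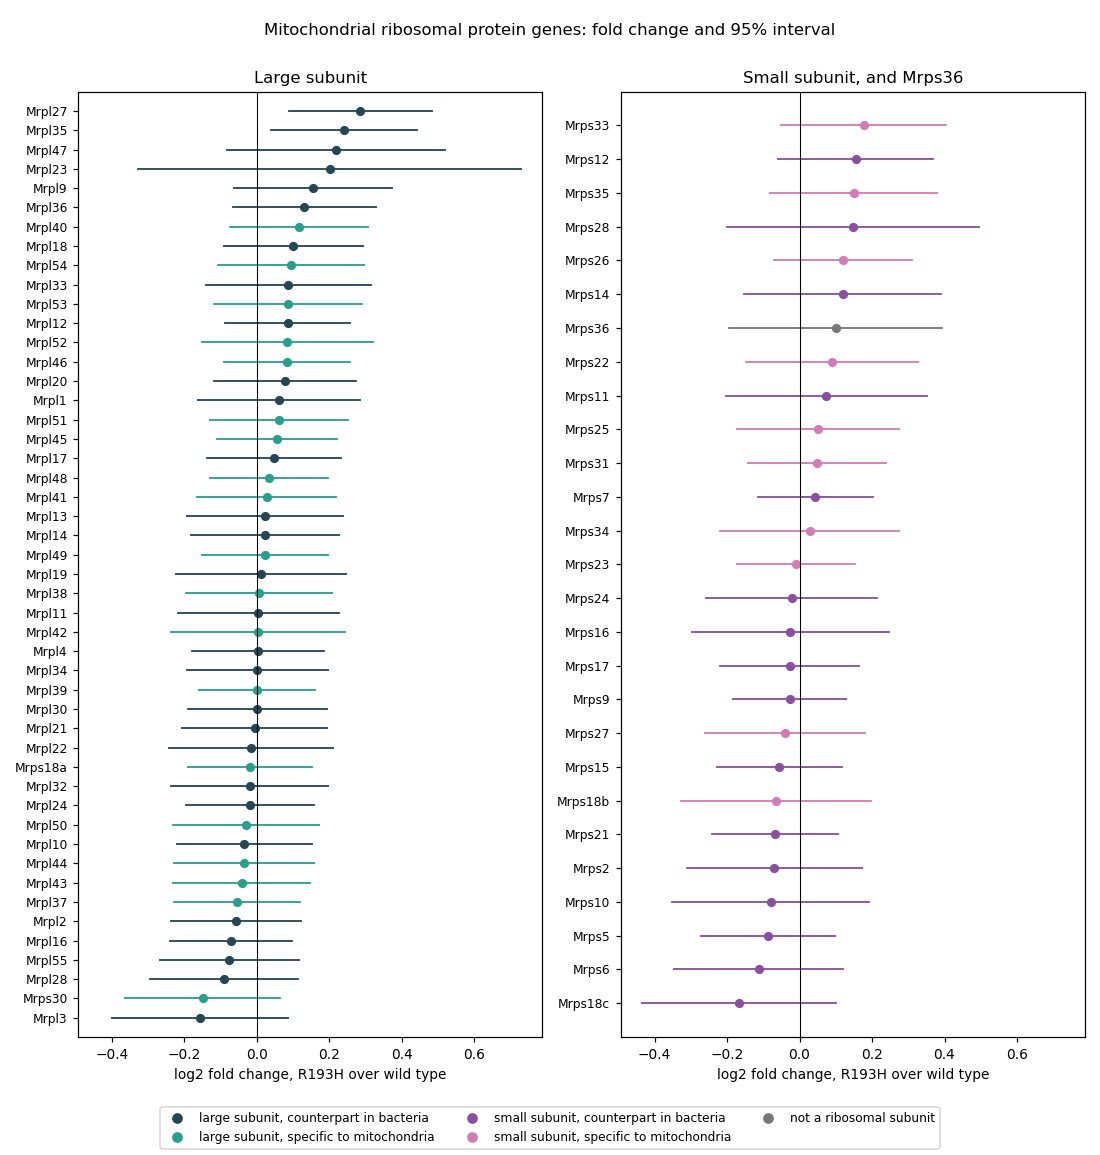
The log2 fold change (R193H over wild type, horizontal axis) of each of the 75 tested members is a point with its 95% interval as a line, with large subunit members on the left and small subunit members and Mrps36 on the right, colored by role. The points run from -0.17 (Mrps18c) to 0.29 (Mrpl27), and the intervals of Mrpl27 and Mrpl35 lie above 0.

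**Figure D2:**
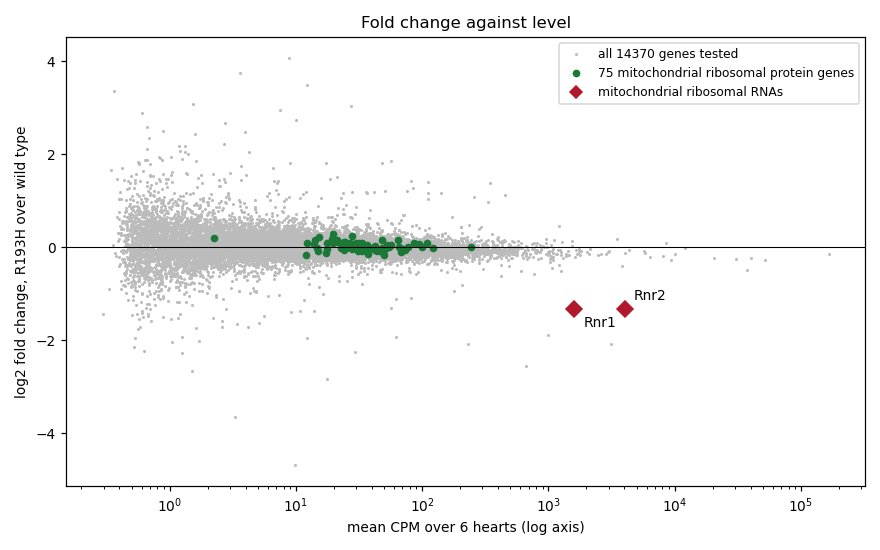
Each grey point is one of the 14370 genes tested, by mean level over 6 hearts (CPM, log axis) and log2 fold change (R193H over wild type). The 75 tested members, in green, lie in a narrow band around 0, and the 2 mitochondrial ribosomal RNAs, as red diamonds, lie at -1.32 and -1.33.

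Hearts of a group also differed little in these genes. The median coefficient of variation of a member's CPM within a group was 6.82% in wild type and 5.29% in R193H hearts. For all genes in the same range of levels it was 7.35% and 8.19%. The median deviation of the members from the wild type mean, on the log2 CPM scale, was -0.0023, 0.018 and -0.0033 in the wild type hearts and 0.056, -0.0057 and 0.046 in the R193H hearts. R193H replicate 2 lay just below the wild type hearts in this measure and the other R193H hearts lay above them.

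Among large subunit members with a bacterial counterpart, 19 of 29 tested had a higher mean in R193H, with a median log2 fold change of 0.011. Mrpl27 (chr11:94653767-94660089) encodes a protein that reaches toward the peptidyl transferase centre, where peptide bonds form. Its level was 17.6, 18.4 and 17.1 CPM in the wild type, against 21.99, 21.5 and 21.2 CPM with R193H. All R193H hearts were above all wild type hearts. The log2 fold change was 0.29 (SE 0.088), with an unadjusted p of 0.00924 and an adjusted p of 0.722 in edgeR's quasi-likelihood test. A processed pseudogene, Gm6304, shares 98.88% of 447 aligned bases with the Mrpl27 transcript and held 39 counts over all hearts.

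Mrpl35 (chr6:71812997-71826969), another large subunit protein of bacterial ancestry, had 24.6, 24.4 and 27.5 CPM in the wild type, against 32.0, 29.1 and 29.3 CPM with R193H. The groups again did not overlap. The log2 fold change was 0.24 (SE 0.090), with an unadjusted p of 0.0238 and an adjusted p of 0.781 in the same test. Mrpl36, a small zinc-binding protein of the large subunit, had values of 17.8, 18.5 and 19.1 CPM in wild type and of 20.1, 20.5 and 20.2 CPM in R193H hearts, for a log2 fold change of 0.13 (SE 0.088, adjusted p = 0.8997 in edgeR). Its R193H values were nearly equal to each other and just above the highest wild type heart.

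Mrpl47, a protein at the rim of the polypeptide exit tunnel, had 14.5, 11.8 and 16.3 CPM in the controls and, with R193H, 15.96, 15.6 and 17.9 CPM. The groups overlapped, with wild type replicate 2 the lowest heart, and the log2 fold change was 0.22 (SE 0.134), or 0.0996 without that heart and 0.33 without wild type replicate 3. Mrpl9, near the stalk that helps used transfer RNA leave, had 51.7, 44.4 and 41.2 CPM in the wild type, against 48.1, 50.9 and 53.7 CPM with R193H, giving a log2 fold change of 0.15 with overlapping groups (0.25 without wild type replicate 1 and 0.083 without replicate 3). Mrpl12 belongs to the flexible stalk that recruits translation factors and also binds the mitochondrial RNA polymerase. It had values of 103, 112 and 100.4 CPM in wild type and of 113, 113 and 109 CPM in R193H hearts, giving a log2 fold change of 0.085 (SE 0.077) with overlapping groups.

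The lowest log2 fold change in the large subunit was that of Mrpl3 (chr9:105053239-105079888), at -0.16 (SE 0.109). Mrpl3 encodes a protein beside the peptidyl transferase centre and is one of the human cardiomyopathy genes of this family. Its level was 55.3, 58.1 and 43.4 CPM in the wild type, against 45.5, 47.9 and 47.0 CPM with R193H. The wild type hearts lay on both sides of the R193H hearts, which were close together. The fold change was -0.076 without wild type replicate 2, -0.28 without replicate 3 and -0.028 with library totals as the scaling. Mrpl30, one of the most abundant members, had 99.6, 96.3 and 104 CPM in the wild type, against 105, 90.2 and 105 CPM with R193H, giving a log2 fold change of 0.0013 whose 95% interval ran from -0.19 to 0.19.

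**Figure D3:**
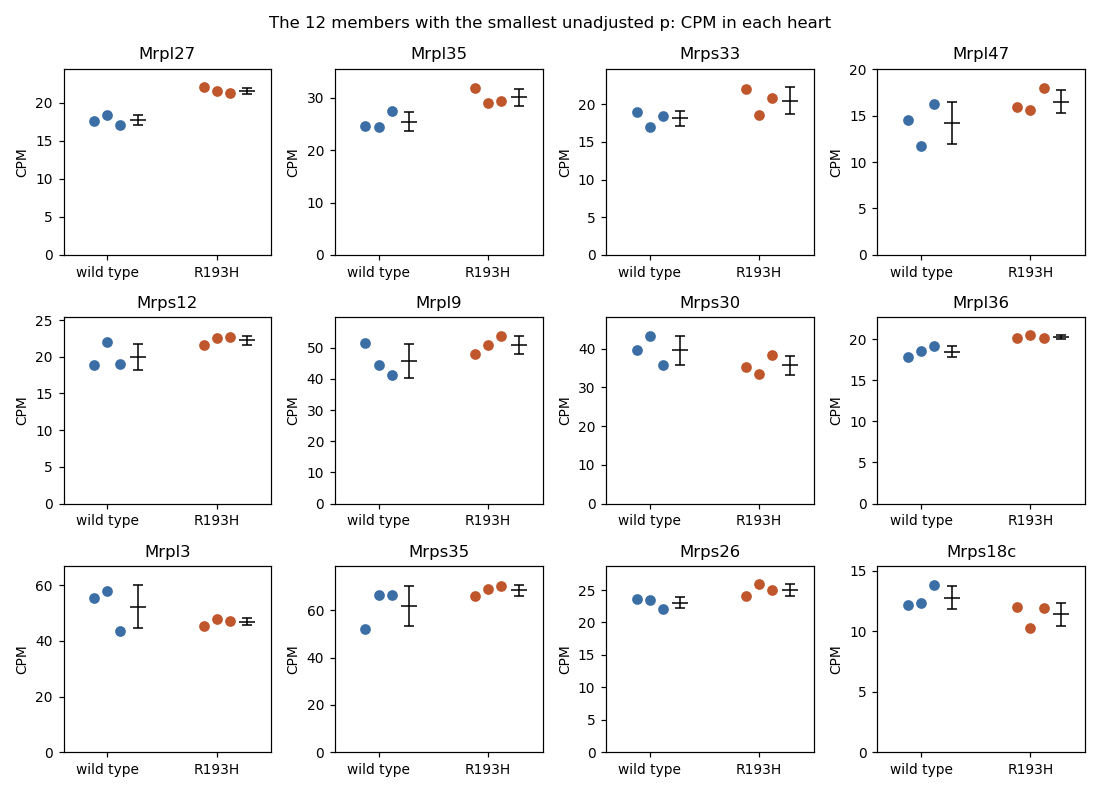
The level of each of the 12 members with the smallest unadjusted p is shown in every heart (CPM from 0, points), with the group mean and SD (n = 3) beside the points. R193H hearts lie above wild type hearts without overlap in Mrpl27, Mrpl35, Mrpl36 and Mrps26 and below them in Mrps18c, and the groups of the other 7 overlap.

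Of the large subunit members specific to mitochondria, 13 of 19 had a higher mean in R193H, with a median log2 fold change of 0.021. Mrpl52 and Mrpl46 belong to the central protuberance, the crown of the large subunit, which contacts the head of the small one. Mrpl52 had values of 12.1, 11.7 and 11.97 CPM in wild type and of 12.7, 12.2 and 13.0 CPM in R193H hearts. Mrpl46, named here because its groups also did not overlap, had 30.1, 29.3 and 28.4 CPM against 30.4, 31.2 and 31.3 CPM. In both, the gap between the groups was smaller than the spread within the R193H group, and the log2 fold changes were 0.085 (SE 0.106) and 0.082 (SE 0.078).

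Mrps30, whose protein is part of the central protuberance, had 39.5, 43.2 and 35.9 CPM in the controls and, with R193H, 35.2, 33.4 and 38.3 CPM, giving a log2 fold change of -0.15 (SE 0.096) with overlapping groups (-0.081 without wild type replicate 2 and -0.025 with library totals). Mrpl44, an RNase III-like protein and another of the human cardiomyopathy genes, had 32.2, 34.9 and 30.4 CPM against 30.2, 32.8 and 32.0 CPM, a log2 fold change of -0.036 (SE 0.086). Mrps18a had 38.9, 41.0 and 41.8 CPM against 40.6, 38.7 and 41.0 CPM, a log2 fold change of -0.018. None of these groups separated. With scaling by library totals in place of trimmed means, the fold changes of Mrpl44 and Mrps18a turned to 0.093 and 0.11.

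Of the small subunit members with a bacterial counterpart, 5 of 16 had a higher mean in R193H, with a median log2 fold change of -0.027. Mrps18c (chr5:100798627-100804471), one of 3 paralogs descended from a single bacterial protein, was the member whose R193H hearts all lay below the wild type hearts. It had 12.1, 12.4 and 13.8 CPM in the wild type, against 11.96, 10.3 and 11.9 CPM with R193H. The nearest hearts of the groups, at 11.96 and 12.1 CPM, almost touched, and the log2 fold change was -0.17 (SE 0.120, adjusted p = 0.8997 in edgeR). It was -0.097 without R193H replicate 2 and -0.044 with library totals. Mrps12, a protein of the decoding centre, had 18.9, 22 and 19.0 CPM against 21.5, 22.6 and 22.6 CPM, a log2 fold change of 0.16 (SE 0.096) with overlapping groups.

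Mrps6 had values of 18.6, 18.5 and 16.6 CPM in wild type and of 16.5, 17.8 and 15.3 CPM in R193H hearts, giving a log2 fold change of -0.11 (SE 0.104). Mrps21 had 45.3, 50.1 and 47.7 CPM against 46.1, 43.9 and 46.7 CPM, a log2 fold change of -0.067 (SE 0.078). The groups overlapped in both, and library totals turned both fold changes positive, to 0.018 and 0.059.

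Of the small subunit members specific to mitochondria, 7 of 10 had a higher mean in R193H, with a median log2 fold change of 0.049. Mrps33 had 18.9, 16.97 and 18.5 CPM in the controls and, with R193H, 22.03, 18.6 and 20.8 CPM, giving a log2 fold change of 0.18 (SE 0.102) with overlapping groups. Its pseudogene Gm5776, identical over 99.69% of 321 aligned bases, held 336 counts over all hearts. Mrps26 had 23.6, 23.4 and 22.04 CPM against 24.1, 25.9 and 25.01 CPM, without overlap, and a log2 fold change of 0.12 (SE 0.085).

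Mrps35 had 51.9, 66.5 and 66.7 CPM in the wild type, against 66.0, 69.2 and 70.3 CPM with R193H. The log2 fold change of 0.15 (SE 0.103) came with 1 low wild type heart, replicate 1, and was 0.039 without it. Mrps22, a human cardiomyopathy gene, had 21, 16.97 and 19.7 CPM against 21.1, 19.2 and 21.05 CPM, a log2 fold change of 0.089 (SE 0.106) that was 0.0068 without wild type replicate 2 and 0.15 without replicate 1. Mrps34, whose loss impairs mitochondrial translation in mouse heart and liver, had 35.9, 38.6 and 30.5 CPM against 36.6, 31.7 and 38.6 CPM, a log2 fold change of 0.028 (SE 0.111). Both had overlapping groups.

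Mrps23 had values of 124, 123 and 122 CPM in wild type and of 125, 116 and 125 CPM in R193H hearts, giving a log2 fold change of -0.010 (SE 0.073). Mrps25 had 25.9, 29.1 and 25.9 CPM against 30.9, 25.5 and 27.3 CPM, a log2 fold change of 0.050. Mrps18b had 22.6, 25.9 and 24.8 CPM against 23.4, 20.1 and 26.8 CPM, a log2 fold change of -0.065 (SE 0.117). Groups overlapped in all of these, and with library totals the values of Mrps23 and Mrps18b turned to 0.12 and 0.056. Mrps18b shares 99.76% of 417 aligned bases with the pseudogene Gm13552, which held 177 counts. Mrps36, the member outside the ribosome, had 14.8, 15.8 and 20.7 CPM against 18.8, 17.8 and 18.4 CPM, a log2 fold change of 0.100 (SE 0.132) with overlapping groups. It was 0.0057 without wild type replicate 1 and 0.26 without replicate 3.

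In all, groups did not overlap with R193H higher in 6 of 75 members (8%, against 6.02% of all genes tested), namely Mrpl27, Mrpl35, Mrpl36, Mrpl46, Mrpl52 and Mrps26. They did not overlap with R193H lower in 1 (1.33%, against 5.8%), Mrps18c. Among genes of 10 to 300 CPM these shares were 5.04% and 6.7%, against 8.11% and 1.35% of the 74 members in that range. The share higher was not far from the background and the share lower was below it, and neither difference was tested. The large subunit as a whole had a median log2 fold change of 0.016 with 32 of 48 means higher, and the small subunit had -0.016 with 12 of 26 higher. The difference between the subunits was not tested. The 9 members listed for the central protuberance had a median of 0.082, with 7 higher. They include Mrpl27, Mrpl46 and Mrpl52, named above for groups without overlap, and also Mrps30 (-0.15) and Mrpl55 (-0.076), which were lower. The 5 members listed for the stalk had a median of 0.085 with 4 higher, and the 7 listed for the exit tunnel had 0.048 with 4 higher. Whether these lists differ from the other members was not tested.

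The total given to these genes depended on how libraries were scaled. The members took 0.293%, 0.297% and 0.296% of all counts in wild type and 0.324%, 0.336% and 0.317% in R193H hearts, 0.295% ± 0.0020 against 0.326% ± 0.0094 (SD, n = 3 each). The groups did not overlap and the ratio was 1.103. With 3 hearts against 3, an exact permutation test cannot give a two-sided p below 0.1.

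The share of mitochondrially encoded genes differed in the other direction, at 36.8% ± 0.0715 against 33.8% ± 2.52 (SD, n = 3 each). As a share of counts outside those genes, the members took 0.463%, 0.470% and 0.469% in wild type and 0.500%, 0.486% and 0.491% in R193H hearts, still without overlap and with a ratio of 1.05. With the trimmed mean scaling used for the test, their summed level was 3088 ± 41.5 CPM in the controls and 3123 ± 98.8 CPM with R193H, with overlapping groups. With library totals as the scaling, the median log2 fold change was 0.137 for the members and 0.127 for all genes tested. On that scale 72 of 75 members (96%) had a higher mean, against 78.7% of all genes, and 33 (44%) had higher R193H values without overlap, against 16.5%, with 0 members and 1.36% of genes lower. Relative to the shift of all genes, the members' median differed little between the scalings.

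**Figure D4:**
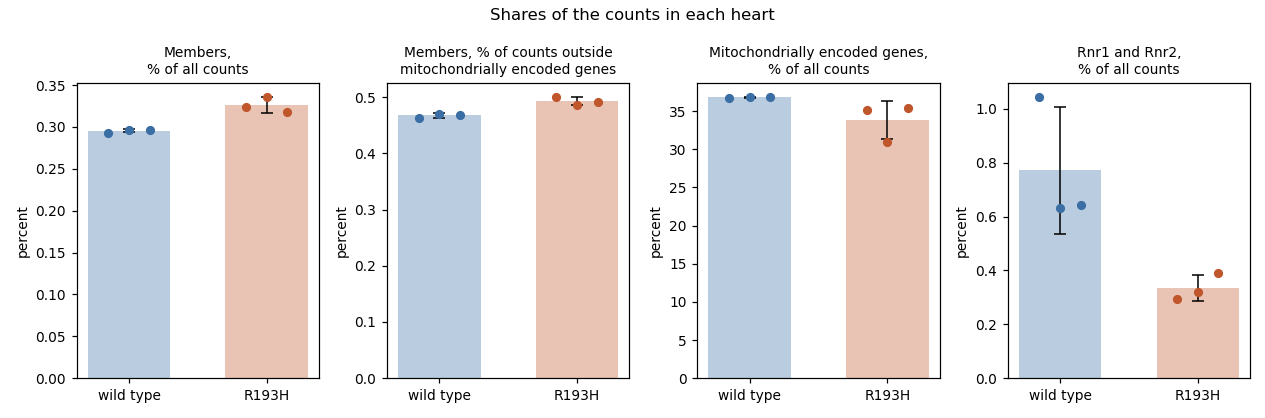
The panels give, as percent of counts from 0, the share of the members among all counts and among counts outside mitochondrially encoded genes, and the shares of mitochondrially encoded genes and of Rnr1 with Rnr2. Bars are group means, error bars are SD (n = 3) and points are hearts, and the groups do not overlap in any panel.

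The RNA of the mitoribosome had lower levels in R193H hearts without passing the test. Rnr1, the small subunit's RNA, had 3325, 1765 and 1784 CPM in the controls and, with R193H, 784, 797 and 1167 CPM. Rnr2, the large subunit's RNA, had 7598, 4906 and 4855 CPM in the wild type, against 2113, 2065 and 2739 CPM with R193H. In both, every R193H heart lay below every wild type heart, and wild type replicate 1 stood above the others.

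The log2 fold changes were -1.32 (SE 0.319) for Rnr1 and -1.33 (SE 0.203) for Rnr2. In edgeR's quasi-likelihood test their unadjusted p values were 0.00705 and 0.000277. The adjusted p values in that test were 0.722 and 0.520, so neither was called. Counts of the 2 RNAs stood at 3.56, 2.13 and 2.17 times the summed counts of the members in wild type and at 0.909, 0.951 and 1.23 times in R193H hearts. The groups did not overlap in this ratio, which does not depend on scaling. The treatment of ribosomal RNA in library preparation is not given in the sources used here, and its part in this ratio was not tested. The 13 mitochondrially encoded messenger RNAs, the templates of the mitoribosome, had a median log2 fold change of -0.27, with 1 of 13 means higher in R193H. ND5, a complex I subunit with one of the largest differences by p among them, had a log2 fold change of -0.48 (SE 0.096, adjusted p = 0.526 in edgeR).

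Proteins of the mitoribosome whose genes carry other names had 0 of 7 called, a median log2 fold change of -0.018 and 3 means higher. Chchd1, a small subunit protein, had values of 30.4, 31.6 and 31.0 CPM in wild type and of 34.8, 36.0 and 33.6 CPM in R193H hearts. Its groups did not overlap, and the log2 fold change was 0.17 (SE 0.077, adjusted p = 0.863 in edgeR). Dap3, a GTP-binding small subunit protein, differed least, with 63.6 ± 1.91 CPM against 63.7 ± 0.408 CPM (SD, n = 3 each). The log2 fold changes of the others were -0.068 for Ptcd3, -0.075 for Aurkaip1, 0.0063 for Gadd45gip1, -0.041 for Mrp63 and -0.018 for Ict1.

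Of 23 tested mitoribosome assembly factors, 0 were called and 9 had a higher mean in R193H (median log2 fold change -0.020). Rpusd4, which modifies the large subunit's RNA, had 12.1, 12.2 and 12.4 CPM in the controls and, with R193H, 9.85, 10.4 and 10.6 CPM, giving a log2 fold change of -0.25 (SE 0.109). Nsun4, an RNA methyltransferase that joins the subunits' assembly, had 30.8, 28.5 and 28.3 CPM against 25.4, 26.2 and 25.8 CPM, a log2 fold change of -0.18 (SE 0.082). R193H hearts were all lower in both, with adjusted p values of 0.861 and 0.863 in edgeR. Gtpbp10, a GTPase of large subunit assembly, had a log2 fold change of 0.20 (SE 0.136) with overlapping groups.

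Of 14 mitochondrial translation factors, 0 were called and 5 had a higher mean (median -0.034). Guf1, a GTPase related to bacterial elongation factor LepA, had 24.7, 22.5 and 26.0 CPM in the wild type, against 21.99, 18.6 and 21.6 CPM with R193H, giving a log2 fold change of -0.24 (SE 0.102) without overlap. Gfm1, the translocating elongation factor, had 132, 136 and 144 CPM against 128, 121 and 131 CPM, a log2 fold change of -0.12 (SE 0.077) that also came without overlap. Tsfm, the exchange factor of the transfer RNA carrier, had 0.099 (SE 0.102) with overlapping groups.

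Of 6 genes of mitochondrial transcription 0 were called and 2 had a higher mean (median -0.089). Tefm, the elongation factor of mitochondrial RNA polymerase, had values of 12.1, 10.9 and 12.4 CPM in wild type and of 13.1, 13.7 and 15.04 CPM in R193H hearts, giving a log2 fold change of 0.24 (SE 0.115) without overlap. Polrmt, the polymerase, and Tfb2m, its initiation factor, had -0.11 and -0.073 with overlapping groups.

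Among 9 tested regulators of mitochondrial biogenesis, 0 were called and 4 had a higher mean (median -0.011). Ppargc1a, the coactivator that drives mitochondrial biogenesis, had 118, 128 and 134 CPM in the controls and, with R193H, 103, 77.2 and 115 CPM. R193H hearts were all lower, with replicate 2 the lowest, and the log2 fold change was -0.36 (SE 0.135, unadjusted p = 0.0254, adjusted p = 0.793 in edgeR). Gabpa and Yy1, which encode factors whose letters are printed above, had -0.11 (SE 0.078) and -0.092 (SE 0.082) with overlapping groups.

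Levels within the family spanned a wide range. Per kilobase of annotated exon, the tested members ran from 2.33 to 358 CPM, a ratio of 153, around a median of 24.1, and 44 of 75 lay within 2-fold of the median. Mrpl42, a mitochondria-specific protein of the large subunit, was the highest at 358 CPM per kilobase, followed by Mrpl30 at 103 and Mrps21 at 94.8. The lowest tested were Mrpl23, an exit tunnel protein, at 2.33, Mrps25 at 4.52 and Mrpl17 at 4.53. Before division by length, Mrps25 and Mrpl17 had mean levels of 27.4 and 34.4 CPM, near the members' median of 33.4. Their rank rests on long annotated exons, of 6.073 and 7.605 kilobases. Of the 10 highest per exon kilobase, 9 were also among the 10 highest per kilobase of a single coding transcript.

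Mrpl42 (chr10:95480805-95501940) had 242, 226 and 259 CPM in the wild type, against 271, 208 and 250 CPM with R193H, giving a log2 fold change of 0.0036 (SE 0.108). The lowest heart and the highest heart were both R193H, so the groups overlapped fully. The processed pseudogene Gm6419 shares 96.27% of 429 aligned bases with the Mrpl42 transcript and held 556 counts over all hearts. Mrpl23 had 2.20, 1.88 and 2.20 CPM against 2.74, 2.01 and 2.47 CPM, a log2 fold change of 0.20 (SE 0.237), or 0.096 without R193H replicate 1 and 0.32 without replicate 2. Its processed pseudogene Mrpl23-ps1 is identical over all 507 aligned bases and held 75 counts over all hearts, so the counts of both are uncertain.

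**Figure D5:**
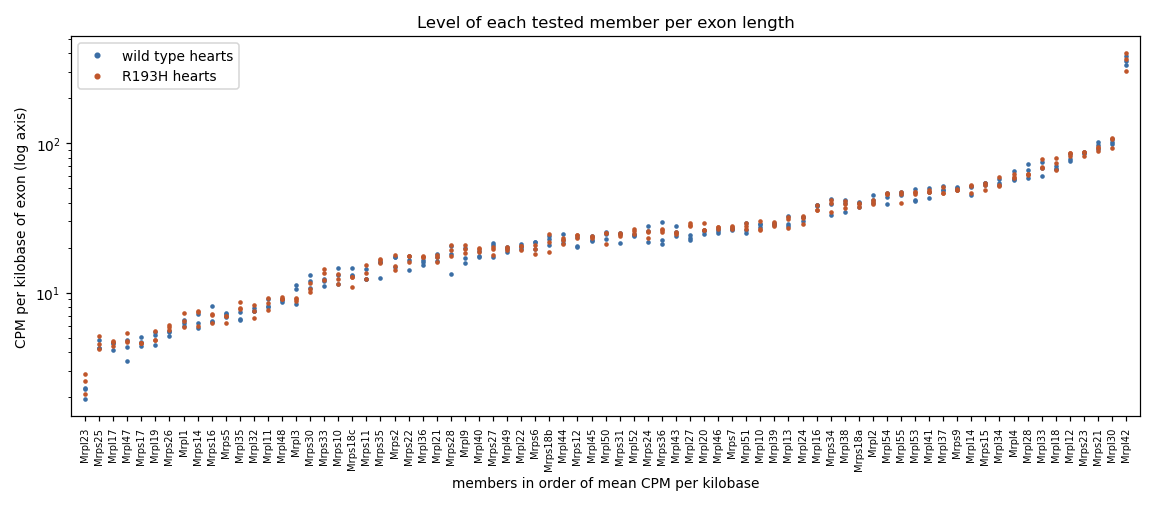
Each point is 1 heart's level of 1 tested member in CPM per kilobase of exon (log axis), with the 75 members in order of their mean and colored by genotype. Mean levels over the hearts run from 2.33 for Mrpl23 to 358 for Mrpl42.

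Copies bear on more of the family. For 26 of the 76 members, GENCODE M21 lists a pseudogene that matches the member's transcript at 90% identity or more over at least 200 bases, 47 copies in all, of which 34 are in the table. Mrps36 has 8 of them. Exons of an annotated gene on the opposite strand overlapped 27 of the 76 (35.5%, against 30.8% of protein-coding genes tested), and Mrpl46 and Mrps11 overlap each other. The labels do not state the strand setting or the handling of reads with several matches, so counts of such members are uncertain.

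Mrpl15 (chr1:4773206-4785739), a large subunit protein with a bacterial counterpart, was the member that did not pass the filter. It had 0, 0 and 0 counts in wild type and 5, 1 and 0 counts in R193H hearts, and in the hearts at 0 that count allows up to 0.140 to 0.213 CPM by library, for counting error only. No pseudogene of the stated identity and no overlapping exon was found for it. The gene beside it, Lypla1, had 57.2 to 73.7 CPM. Psma6, Ndufs7, Rps2 and Eif4e, which nearly every cell needs, had 0 to 2 counts in every heart, and these were chosen after their values were seen. A value near 0 in this table is therefore given as listed, and no statement on Mrpl15 expression in heart is drawn from it.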

How the data were processed

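The authors deposited 1 table of raw counts, whole numbers for each gene symbol in each of 6 hearts. The submitters' processing notes name HISAT2 2.0.4 and GRCm38; the counter used, with its annotation and strand setting, is not given in the sources used here. Columns were matched to hearts by name, and the genotype label gave the groups. edgeR 4.0.16 in R 4.3.3 kept 14370 genes (filterByExpr), scaled libraries by trimmed means (TMM) and compared genotypes by its robust quasi-likelihood test without covariates; p was adjusted over all genes tested by Benjamini-Hochberg, with a threshold of 0.05. CPM values use the TMM-scaled totals, and the biological coefficient of variation was 15.8%. The steps were tested on simulated data, with fold changes larger than any measured in the members. Other scalings (DESeq2 size factors, library totals, upper quartile), leaving out mitochondrially encoded genes, other filters (none, or a CPM of at least 1 in 3 hearts), other tests (DESeq2 1.42.0, limma-voom with limma 3.58.1, a non-robust fit) and leaving out each heart were tried. Exon lengths and positions came from GENCODE M21, and motifs were searched on both strands of RefSeq promoters.

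The members and gene lists were chosen with earlier results of these data known. Members were named if among the 12 smallest p, the 4 highest or lowest fold changes or CPM, the 3 highest or lowest per kilobase or those not tested, or if listed by name (Mrps18a, Mrps18b, Mrps18c, Mrps30, Mrps36, Mrpl12, Mrpl3, Mrpl44, Mrps22, Mrps34). Up to 3 genes per other list were named by p, plus Rnr1, Rnr2 and mitoribosome proteins with other names. Any other named gene was chosen after its values were seen. The hearts of a group are called biological repeats in the labels, and every pair of them differed by more than sampling noise.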

Additional observations from a re-analysis of the deposited data

How the results depend on the processing

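Under every alternative run, 0 members were called, with the lowest adjusted p of a member between 0.411 (library totals) and 0.998 (without wild type replicate 1), and 0 by DESeq2 and limma-voom; at an unadjusted p under 0.05 there were 1 to 5 members, and 17 with library totals. Over all genes, 1 was called in the edgeR fit as reported, 0 with mitochondrially encoded genes left out, 38 with no filter, 42 with DESeq2 and 3 to 21 with 1 heart left out. The members' median log2 fold change was 0.137 with library totals, where all genes also shifted by 0.127, and -0.0020 to 0.041 with 1 heart left out, the highest without R193H replicate 2. The difference in their share of all counts, 0.0305 percentage points, was 0.0254 to 0.0347 with 1 heart left out. Of 27 named tested members, 17 kept their direction under every alternative. With 1 heart left out, 7 of these 17 stayed within 1.5 times their value, Mrpl27 between 0.26 and 0.32 and Mrpl35 between 0.19 and 0.30 among them. The other 10 moved further: Mrpl12 (0.051 to 0.13), Mrpl23 (0.096 to 0.32), Mrpl3 (-0.28 to -0.076), Mrpl47 (0.0996 to 0.33), Mrpl9 (0.083 to 0.25), Mrps18c (-0.20 to -0.097), Mrps22 (0.0068 to 0.15), Mrps30 (-0.22 to -0.081), Mrps35 (0.039 to 0.21) and Mrps36 (0.0057 to 0.26). With limma-voom Mrpl30 had -0.0017 and Mrpl42 had -0.0028. With library totals Mrpl44 had 0.093, Mrps18a 0.11, Mrps18b 0.056, Mrps21 0.059, Mrps23 0.12 and Mrps6 0.018. With 1 heart left out, Mrpl30 ran from -0.032 to 0.072, Mrpl42 from -0.083 to 0.11, Mrpl44 from -0.083 to 0.018, Mrps18a from -0.049 to 0.0086, Mrps18b from -0.16 to 0.036, Mrps23 from -0.030 to 0.026, Mrps25 from -0.031 to 0.11 and Mrps34 from -0.064 to 0.11. The cause of these changes was not tested. No paired analysis was possible because replicate numbers follow only the order of listing and pair no hearts. Mrpl23 and Mrpl15 were the least counted members, which limits what can be read from their values, and the reason for their low counts was not tested. Intervals rest on 3 hearts a group and on a variance that edgeR moderates across genes, so they do not measure only the spread of a gene's own hearts.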
